A study of Mus musculus with 4 samples.

Results

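The melanocyte lineage regulators and receptors described here are 10 genes, the transcription factor genes Mitf, Sox10, Pax3, Tfap2a, Lef1, Zeb1, Zeb2 and Snai2 and the receptor genes Kit and Ednrb. They were taken by name, as the rows of the deposited count table whose Ensembl identifier maps to these symbols, and all 10 were found among 53465 gene rows. The study sequenced poly(A) RNA of B16 cells, an established mouse melanoma cell line, in 4 libraries. In 2 of them the cells were controls, and in 2 the cells had been with EM-plasma for 4 h, which the labels give as plasma treated with exosome-mimetic nanovesicles (EMs). The sources used here do not say whether that plasma was a gas or a blood fraction, or what the control cells received. The labels give 1 cell line, no transgene and no genotype beyond it, and they do not say that the libraries came from separate cultures, so every p-value here reflects how these 4 libraries differ among themselves, and that spread may be technical.

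Melanocytes arise from the neural crest. SOX10 and PAX3 switch on Mitf, whose product drives pigment genes, cell survival and proliferation in the melanocyte lineage. TFAP2A works with MITF at many pigment and receptor genes, and LEF1 carries the Wnt signal to the Mitf promoter. ZEB2 and SNAI2 mark the differentiated or early state of the lineage, while ZEB1 is known from melanoma cells that have moved away from it. KIT, the receptor of stem cell factor, and EDNRB, the endothelin B receptor, guide melanoblast migration and growth.

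Mitf is read from several start sites, and its counts in the table sum all of them. The first window shown here lies before the listed start nearest to the 3′ end of the gene, known as the melanocyte start. The second lies before the most upstream start listed. Both were searched for letters of lineage factors, but not for letters of PAX factors. The third is the window before Kit, a receptor gene known to respond to AP-2 factors. Each is the stretch of the 250 bases before a RefSeq start that GENCODE does not give as an exon of the gene, from the RefSeq table on GRCm38.p6 and the + strand, printed 5′ to 3′ with motif matches in capitals.
Mitf, melanocyte start (chr6:97991533-97991782): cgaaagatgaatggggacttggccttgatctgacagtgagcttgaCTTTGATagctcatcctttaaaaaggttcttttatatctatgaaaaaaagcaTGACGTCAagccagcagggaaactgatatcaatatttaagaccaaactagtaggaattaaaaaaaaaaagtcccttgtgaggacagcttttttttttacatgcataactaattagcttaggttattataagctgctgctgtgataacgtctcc
Mitf, most upstream start (chr6:97806808-97807051): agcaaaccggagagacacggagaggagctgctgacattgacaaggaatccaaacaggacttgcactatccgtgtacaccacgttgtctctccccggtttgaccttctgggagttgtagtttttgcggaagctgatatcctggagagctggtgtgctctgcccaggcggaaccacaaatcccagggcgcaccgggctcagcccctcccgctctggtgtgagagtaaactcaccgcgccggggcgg
Kit (chr5:75574737-75574915): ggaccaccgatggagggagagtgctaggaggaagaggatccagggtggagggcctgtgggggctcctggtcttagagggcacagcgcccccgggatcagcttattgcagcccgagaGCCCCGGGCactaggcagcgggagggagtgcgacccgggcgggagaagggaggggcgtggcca
The first window holds CTTTGAT, the letters read by LEF1 and the other TCF factors, from 205 to 199 bases before the start, and TGACGTCA, the cyclic AMP response element, from 153 to 146 bases before it. These letters, searched on both strands, occur in 3.21% and 1.55% of 32851 windows of the same length before RefSeq starts of all genes. The most upstream Mitf window holds neither, nor any other motif searched, and its G and C content was 59.6% of the full window against 36.0% at the melanocyte start. The Kit window holds GCCNNNGGC, the AP-2 letters, from 134 to 126 bases before the start, and these occur in 13.7% of all windows. The other motifs searched on both strands were ACAAAG for SOX factors, CACGTG and CATGTG for MITF, and CACCTG for ZEB and SNAI factors, with shares of 16.5%, 6.02%, 12.3% and 17.2%. None of these other letters occurred in the 3 windows shown, and the motifs found there did not overlap. Another listed Mitf start, not shown, has CAGGTG, the ZEB and SNAI letters on the other strand, from 136 to 131 bases before it. In all, 6 members had 16 windows that were searched, some of them overlapping. The AP-2 letters were in 5 of these 16, beside the 13.7% of all windows. A match describes letters and is not shown to be a site.

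Total counts ran from 46295133 to 49367932 per library, and 13664 genes passed the filter on low counts and were tested. The library scaling factors lay between 0.995 and 1.01, and the median log2 fold change of all tested genes was -0.0027. All 8 melanocyte markers were tested, and edgeR called 0 of them changed. At an unadjusted p below 0.05 there were 2, and the share of all tested genes at that threshold is not given here. The summed level of the 8 was 10505 to 10608 CPM in controls and 10674 to 10890 CPM in treated cells. CPM is a gene's reads divided by the scaled library total of the tested genes and put on a common scale. Markers of blood and skin cells were at 0 or low. The summed level of 5 mast cell markers was 0 in every library, and that of 6 erythroid markers at most 0.0422 CPM. Sums were at most 0.305 CPM for 5 keratinocyte markers, 1.10 CPM for 5 platelet markers and 1.93 CPM for 8 leukocyte markers. The leukocyte marker Ptprc was at 0. Fibroblast markers, which tumour cells can express too, summed to 27.6 to 30.4 CPM. Endothelial markers summed to 3.80 to 4.12 CPM in controls and 5.53 to 5.76 CPM in treated cells, most of it Vwf, with Cdh5 and Kdr at 0, and their part in the results was not tested.

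In the control cells the lineage genes spanned levels from among the highest of all tested genes to 0 reads. Counted per kilobase (kb) of exon, Sox10 was highest at 173 ± 9.40 CPM per kb (SD, n = 2), followed by Mitf at 71.4 ± 1.42, Pax3 at 38.1 ± 0.564, Tfap2a at 28.1 ± 0.429 and Zeb2 at 14.3 ± 0.514 CPM per kb. Snai2 was lower at 3.90 ± 0.387 CPM per kb. Zeb1 was at 0.0304 ± 0.0151 and Kit at 0.0199 ± 0.00874 CPM per kb, and Lef1 and Ednrb had 0 reads. Every pair of neighbours in this order down to Snai2 and Zeb1 differed by more than the spread of the controls. Zeb1 and Kit did not differ beyond it, as the 2 controls of each overlapped those of the other. Sox10 was above 98.8% of all tested genes on this scale and Mitf above 95.6%, while Kit was above only 0.146%. Taking the longest transcript as the length kept the order. Zeb2 was then at 31.3 ± 1.12 CPM per kb, since its annotated exons sum to 19942 bases and its longest transcript has 9124.

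**Figure D1:**
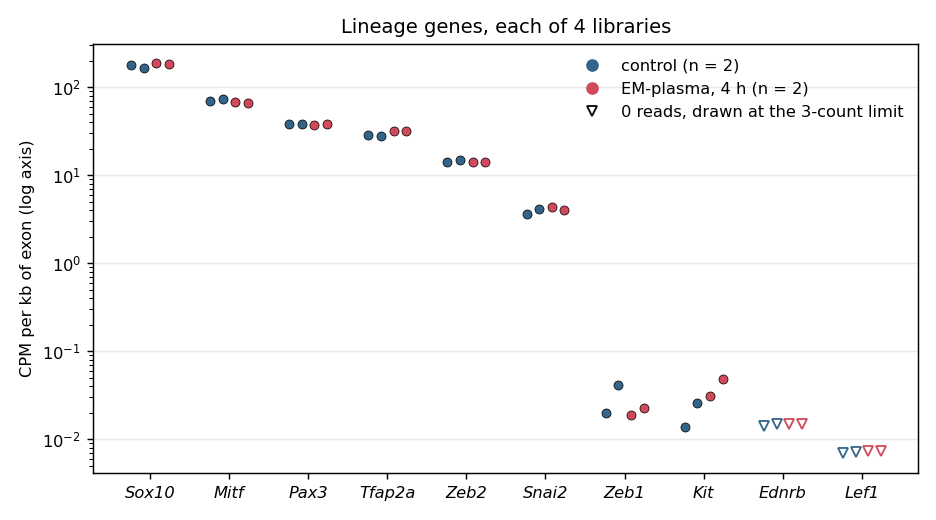
Level of each lineage gene in each library, in CPM per kb of exon on a log axis, with blue points for the 2 controls and red points for the 2 EM-plasma libraries. Open triangles mark 0 reads, drawn at the level of 3 counts. The 4 points of Sox10, Mitf, Pax3, Tfap2a and Zeb2 lie close together, and those of Zeb1 and Kit near the bottom are spread widely.

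Of the 8 lineage genes tested, 1 was higher after EM-plasma, Tfap2a, and 0 were lower, and DESeq2 gave the same counts. Among all tested genes 6.21% were called changed, 3.34% higher and 2.88% lower in treated cells, and among the 2885 genes at 100 CPM or more in controls 8.46% were called. A gene was called at an adjusted p below 0.05 in edgeR's quasi-likelihood test. At an unadjusted p below 0.05 there were 2 members, Tfap2a and Mitf. The share of all tested genes at this unadjusted threshold is not given here, so that count has no background beside it. The treated and control libraries did not overlap in 4 of the 8, with Tfap2a, Sox10 and Kit on the higher side and Mitf on the lower side. Among all tested genes they did not overlap in 49.1% (24.3% higher, 24.8% lower), so the members' share was near the background. The median log2 fold change of the 8 was 0.031, with 4 above 0. The summed level of the 10 genes was 1633 to 1643 CPM in controls and 1642 to 1660 CPM in treated cells.

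**Figure D2:**
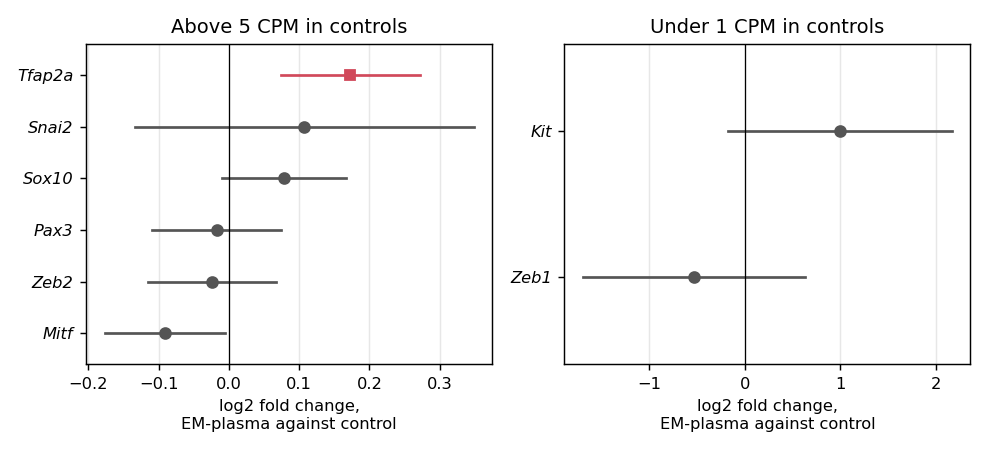
Log2 fold change of EM-plasma against control (point) with its 95% interval (line) for the 8 tested lineage genes, split by level because the scales differ. The red square marks Tfap2a, the called gene, at 0.17. The intervals of Sox10, Pax3, Zeb2, Snai2, Kit and Zeb1 cross 0, and that of Mitf ends just below 0.

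Mitf, the gene of the master transcription factor of the lineage (chromosome 6, 97807052 to 98021349, ENSMUSG00000035158), was at 436 and 448 CPM in the controls and at 418 and 412 CPM in the treated cells. Both treated libraries lay below both controls. The log2 fold change was -0.091 (SE 0.042, adjusted p = 0.215), a fitted level of 0.939 times that of controls with a 95% interval from 0.885 to 0.996. The interval, which is not adjusted for the number of genes, just leaves out 1, and the call after adjustment was not made in the reported fit or in any of its 11 alternatives, where the value ran from -0.11 to -0.068. A change as large or larger in size was seen in 49.4% of all tested genes. That share counts genes of all levels, also those with few reads, and the median SE of all tested genes was 0.070. The table does not separate the melanocyte start of Mitf from its other starts.

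Sox10, which encodes the neural crest factor upstream of Mitf (chromosome 15, 79154908 to 79165240, ENSMUSG00000033006), was at 549 and 508 CPM in the controls and at 565 and 550 CPM in the treated cells. Both treated libraries lay above both controls, the nearer by less than the gap between the controls. The log2 fold change was 0.079 (SE 0.043, 95% interval -0.010 to 0.17, adjusted p = 0.331). Each control moved this value by over 1.5 times. Without control 1 it was 0.14 and passed the test (adjusted p = 0.0476), and without control 2 it was 0.028 (adjusted p = 0.692).

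Pax3, whose product acts with SOX10 on the Mitf promoter (chromosome 1, 78101267 to 78197134, ENSMUSG00000004872), was at 233 and 238 CPM in the controls and 232 and 234 CPM in the treated cells, so the groups overlapped. The log2 fold change was -0.017 (95% interval -0.11 to 0.074, adjusted p = 0.88). In fold terms the interval ran from 0.927 to 1.05, and it carries no error beyond these 4 libraries.

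The ratio of counts between these factors, taken within a library, does not depend on library scaling. Mitf had 0.795 and 0.883 reads per Sox10 read in the controls and 0.739 and 0.749 in the treated cells, lower in both treated libraries. Mitf had 1.87 and 1.88 reads per Pax3 read in the controls and 1.80 and 1.76 in the treated cells. The ratios were not tested, and none of these 3 genes passed the test on its own.

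Tfap2a encodes AP-2 alpha, a factor of neural crest and skin that shares targets with MITF (chromosome 13, 40715302 to 40738376, ENSMUSG00000021359). It was at 139 and 136 CPM in the controls and at 156 and 155 CPM in the treated cells. The treated libraries lay well above the controls, with a gap several times the spread inside either group. Tfap2a rose 1.13-fold (log2 fold change 0.17, SE 0.048, 95% interval 0.074 to 0.27, adjusted p = 0.0278). By adjusted p it ranked at 613 of 849 called genes. Of all tested genes, also those with few reads, 28.7% had a change as large or larger in size. The value ran from 0.16 to 0.19 in the 11 alternatives. The call ended without EM-plasma 1 (adjusted p = 0.501) and without EM-plasma 2 (adjusted p = 0.408), fits in which the estimated biological coefficient of variation was 5.01% against 4.0% with all libraries, and without the filter on low counts (adjusted p = 0.228).

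**Figure D3:**
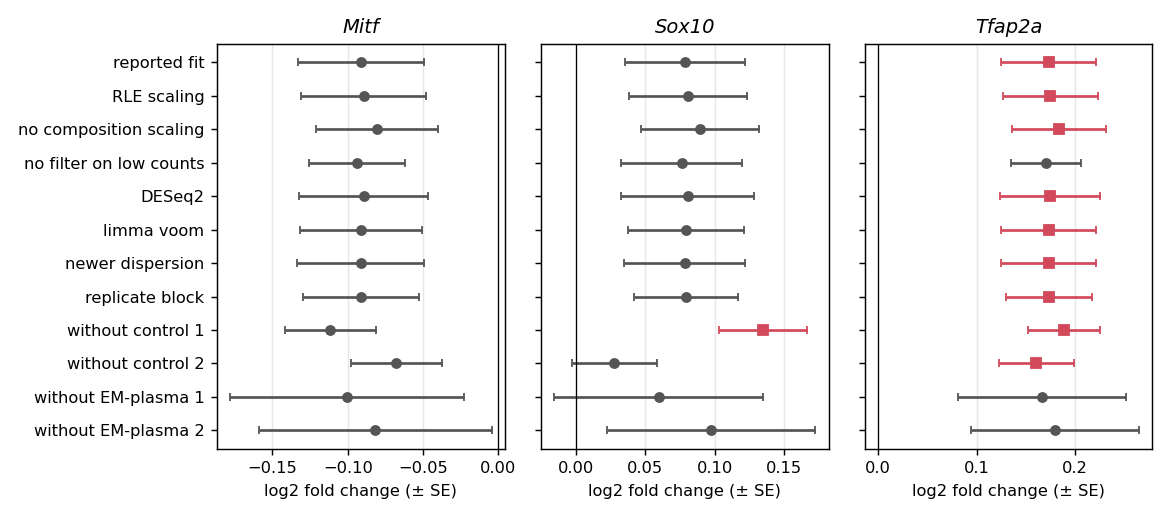
Log2 fold change (point) and SE (bar) of Mitf, Sox10 and Tfap2a in the reported fit and each of 11 alternatives, with red squares where the adjusted p was below 0.05. Mitf stays below 0 throughout with 0 calls, Sox10 is called only without control 1, and Tfap2a is called in the reported fit and 8 of the 11.

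Gm26688, an antisense gene whose exons share 380 bases with Tfap2a on the other strand, moved with it. It was not among the genes set out by rule and was named after its values were seen. It had 92 and 127 reads in the controls and 178 and 159 in the treated cells, a rise of 1.59-fold from 2.27 ± 0.573 to 3.62 ± 0.284 CPM (log2 fold change 0.67, adjusted p = 0.041). The call of Gm26688 ended without control 1 (log2 fold change 0.43, adjusted p = 0.213), EM-plasma 1 (0.283) or EM-plasma 2 (0.0727), and neither DESeq2 (0.162) nor the fit without the filter on low counts (0.353) made it. Tfap2a itself had 6852 and 6457 reads in the controls and 7271 and 7192 in the treated cells. The kit was stranded, but the strand setting of the counting is not given in the sources used here, and reads of the shared bases cannot then be told apart. The other tested member with a neighbour of this kind that had reads, Zeb2, shares 653 of 19942 exon bases with Zeb2os, which had 86 to 108 reads per library.

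By the rule for likeness, the tested genes nearest to Tfap2a in centred log2 CPM over the 4 libraries were Rapgef2, Plpbp and Kctd10, at distances of 0.0103, 0.0117 and 0.0129 among 9726 genes compared. With 4 libraries in 2 groups this describes the shape of the values and no more.

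Lef1, the gene of the Wnt effector (chromosome 3, 131110471 to 131224356, ENSMUSG00000027985), had 0 reads in every library. A count of 0 allows a level of up to 0.0609 to 0.0644 CPM per library, counting error only. Other genes of the same factor family were read: Tcf7l1 was at 67.4 ± 2.82 CPM in controls and 67.2 ± 3.16 in treated cells, Tcf7l2 at 29.2 ± 0.0105 and 29.0 ± 2.12 CPM, and Tcf7 at 4.72 ± 0.00901 and 4.79 ± 0.572 CPM. None of these 3 passed the test, with adjusted p from 0.961 to 0.976. Ctnnb1, the gene of their partner beta-catenin, was at 1439 ± 8.80 and 1399 ± 3.91 CPM (adjusted p = 0.593).

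Zeb2, a zinc finger repressor gene of the differentiated melanocyte (chromosome 2, 44983632 to 45117395, ENSMUSG00000026872), was at 278 and 293 CPM in the controls and at 280 and 282 CPM in the treated cells. Both treated values lay between the controls. Its log2 fold change was -0.024 (95% interval -0.11 to 0.067, adjusted p = 0.828). Its paralog Zeb1 (chromosome 18, 5591860 to 5775467, ENSMUSG00000024238) had only 10 and 20 reads in the controls and 9 and 11 in the treated cells. Its log2 fold change was -0.53, and the 95% interval, -1.69 to 0.63 (adjusted p = 0.665), was too wide to show a direction at this depth. In the same libraries Zeb2 had between 694 and 1451 reads for each Zeb1 read. Without control 2 the log2 fold changes of Pax3, Zeb2 and Zeb1 were above 0, at 0.0011, 0.017 and 0.082.

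Snai2, which encodes Slug, a factor of early melanoblasts (chromosome 16, 14705852 to 14709385, ENSMUSG00000022676), was at 7.33 and 8.44 CPM in the controls and at 8.86 and 8.12 CPM in the treated cells. The groups overlapped, and the log2 fold change was 0.11 (95% interval -0.13 to 0.35, adjusted p = 0.673). Leaving out control 1 gave 0.0088 and leaving out control 2 gave 0.21, while the fits lacking EM-plasma 1 or EM-plasma 2 gave 0.043 and 0.17, with no call in any of these 4 fits.

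Among the receptors, Kit (chromosome 5, 75574916 to 75656722, ENSMUSG00000005672) had 6 and 11 reads in the controls and 13 and 20 in the treated cells. Both treated counts were above both controls, yet the fitted log2 fold change of 0.997 had a 95% interval from -0.18 to 2.17 and did not pass the test (adjusted p = 0.356). The value was 0.60 without control 1, 1.52 without control 2 and 0.65 without EM-plasma 2. Ednrb (chromosome 14, 103814625 to 103844402, ENSMUSG00000022122) had 0 reads in every library, with the same upper limit per library as Lef1. Ednra, the gene of the other endothelin receptor, was at 0.251 ± 0.212 and 0.225 ± 0.107 CPM, and the endothelin genes Edn1, Edn2 and Edn3 had 0 reads. Kitl, the gene of the KIT ligand, was at 2.31 ± 0.0763 CPM in controls and 2.55 ± 0.00282 in treated cells (adjusted p = 0.76). In bulk RNA, fewer cells that express a gene and less RNA per cell cannot be told apart.

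**Figure D4:**
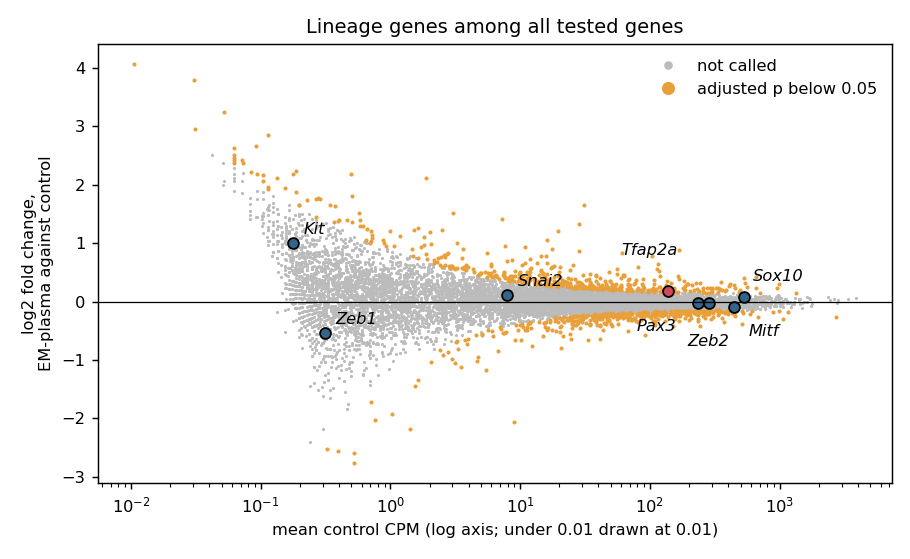
Log2 fold change against mean control CPM (log axis) for all 13664 tested genes, with called genes in orange, Tfap2a in red and the other 7 tested lineage genes in blue. The abundant lineage genes lie close to 0, and Kit and Zeb1 lie in the wide scatter of genes with few reads.

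Genes around the 10 were read from lists of known biology, given here by counts beside the background of 6.21%. All of these lists were drawn up with earlier results of these data known, so their counts are not independent evidence. The estimated variation was larger in the fits without an EM-plasma library than in those without a control. Calls kept or lost in those fits are therefore not on equal terms. Without the filter on low counts, which left 14 called genes in all, Ccn1 and Sparc were the only called genes of these lists (adjusted p = 0.0312 and 0.0458). Of 15 tested paralogs of the lineage factors and receptors, 1 rose and 3 fell (26.7%), and the median was -0.0069 on the log2 scale. Tfeb, a sister of Mitf that drives lysosome genes, rose 1.22-fold to 29.2 ± 0.0778 CPM (adjusted p = 0.0233). Sox9, a neural crest factor often set against SOX10 in melanoma, fell from 23.3 ± 0.651 to 18.9 ± 1.45 CPM (1.23-fold lower, adjusted p = 0.0185). Sox11 and Sox4, close relatives of each other, were 1.14-fold lower each, Sox11 from 166 ± 7.54 to 146 ± 3.01 CPM and Sox4 from 91.9 ± 0.281 to 80.8 ± 1.03 CPM (adjusted p = 0.0189 and 0.034). Leaving out control 1 kept 3 of the calls, leaving out control 2 kept 1, and 0 held without either EM-plasma library. That of Sox9 ended in all 4 of these fits (adjusted p from 0.0517 to 0.474), that of Tfeb in all but the fit without control 1 (0.176 to 0.219), that of Sox11 likewise (0.0698 to 0.499), and that of Sox4 without EM-plasma 1 (0.542) or EM-plasma 2 (0.394). DESeq2 did not call Tfeb (0.0806) or Sox9 (0.0754). The log2 fold change of Tfeb was 0.28 with all libraries, 0.18 without control 2 and 0.41 without control 1.

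Of 4 tested genes of the ligand list, which holds ligands, ligand-processing genes and the melanocortin receptor, 0 were called by edgeR or DESeq2 and 0 had an unadjusted p below 0.05. The most abundant was Mc1r, the melanocortin receptor gene, at 204 ± 9.07 CPM in controls and 214 ± 0.69 in treated cells (adjusted p = 0.468). Of 24 tested genes that relay KIT and EDNRB signals, 0 rose and 1 fell (4.17%, median log2 fold change -0.023). The one that fell was Rasgrp3, a RAS activator downstream of Gq signalling, at 157 ± 2.01 CPM in controls and 127 ± 2.45 in treated cells (1.23-fold lower, adjusted p = 0.000158, and 0.061 without EM-plasma 1). The most abundant of them, the phosphatase gene Ptpn11, was at 346 ± 8.71 and 350.4 ± 5.64 CPM (adjusted p = 0.869).

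Of 21 tested regulators of Mitf, 2 rose and 2 fell (19.0%), and the median was -0.048 on the log2 scale. Hes1, a Notch target and repressor gene, rose 1.54-fold from 3.84 ± 0.512 to 5.94 ± 0.16 CPM (adjusted p = 0.00956). Atf4, a stress factor gene known to lower Mitf, rose 1.13-fold from 238 ± 0.67 to 268 ± 0.479 CPM (adjusted p = 0.016). Tcf4, an E-protein gene, fell from 91.4 ± 3.28 to 78.8 ± 2.80 CPM (adjusted p = 0.0173), and Mapk3, which encodes the kinase ERK1, from 131 ± 9.40 to 116 ± 1.86 CPM (adjusted p = 0.0429). Creb1, the factor of the cyclic AMP response element found in the Mitf window, was at 99.9 ± 0.943 and 95.4 ± 1.58 CPM (adjusted p = 0.53). Of these 4 calls, 3 held when control 1 was left out, 2 when control 2 was, 0 when EM-plasma 1 was and 1 when EM-plasma 2 was. Lost were Mapk3 in DESeq2 (adjusted p = 0.0783), without composition scaling (0.0617) and without control 1 (0.142, with a log2 fold change of -0.10 against -0.18), Hes1 and Tcf4 without control 2 (0.113 and 0.0799), Hes1, Atf4, Tcf4 and Mapk3 without EM-plasma 1 (0.0676, 0.418, 0.185 and 0.375), and Atf4, Tcf4 and Mapk3 without EM-plasma 2 (0.387, 0.489 and 0.529).

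Of 27 tested targets of MITF and SOX10, 3 rose and 2 fell (18.5%), and the median was -0.019 on the log2 scale. The genes that rose were Met, the hepatocyte growth factor receptor (81.5 ± 1.84 to 95.3 ± 2.89 CPM, adjusted p = 0.00956), Bcl2, a survival gene (31.7 ± 0.965 to 37.9 ± 0.0418 CPM, adjusted p = 0.0161), and Tbx2, a T-box repressor gene (71.0 ± 5.11 to 82.7 ± 0.789 CPM, adjusted p = 0.0207). Rab27a, which carries melanosomes to the cell edge, fell from 236 ± 9.68 to 211 ± 0.557 CPM (adjusted p = 0.0294), and Apoe, a lipid carrier gene, from 417 ± 13.1 to 379 ± 1.68 CPM (adjusted p = 0.0472). The most abundant target, the pigment enzyme gene Tyrp1, was at 3900 ± 93.4 and 4068 ± 61.6 CPM (adjusted p = 0.348). Tyr, the gene of tyrosinase, named after its values were seen, was at 42.7 ± 3.19 and 36.7 ± 2.06 CPM (adjusted p = 0.0532). Of the 5 calls, 3 held with either control left out and 0 with either EM-plasma library left out. Apoe was lost without composition scaling (adjusted p = 0.0636), Bcl2 and Apoe without control 1 (0.0535 and 0.07), Tbx2 and Rab27a without control 2 (0.104 and 0.0764), and all 5 without EM-plasma 1 (0.256 to 0.617) or EM-plasma 2 (0.14 to 0.529).

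Of 8 tested targets of ZEB and SNAI factors, 1 rose and 0 fell (12.5%), the median was -0.031 on the log2 scale, and 7 of the 21 listed had 0 reads in every library. The gene that rose was Fn1, fibronectin, from 275 ± 11.2 to 324 ± 7.93 CPM (1.18-fold, adjusted p = 0.00111). Its call ended without EM-plasma 1 (adjusted p = 0.19) and lay at the threshold without EM-plasma 2 (0.05003). Vim, the gene of vimentin, was the most abundant at 1779 ± 27.2 and 1729 ± 39.8 CPM (adjusted p = 0.591). Cdh1, the gene of E-cadherin and a known target of repression by these factors, was at 1.45 ± 0.0387 and 1.43 ± 0.533 CPM, and Cdh2, the gene of N-cadherin, at 225 and 227 CPM in the control libraries and 208 ± 1.93 CPM in the EM-plasma libraries (adjusted p = 0.978 and 0.124).

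Genes known from the invasive state of melanoma cells, in which MITF activity is low, were also counted: 7 of 13 tested rose and 1 fell (61.5%), and the median was 0.27 on the log2 scale. Like the other lists, it was drawn up with earlier results of these data known, so its count is not independent evidence. Ccn1, a matricellular YAP target gene, rose 2.5-fold from 28.6 ± 0.369 to 71.4 ± 5.45 CPM (adjusted p = 3.75e-14). Sparc, a matrix glycoprotein gene, rose 1.33-fold from 531 ± 10.7 to 706 ± 11.1 CPM (adjusted p = 5.9e-08). Loxl2, a collagen cross-linking enzyme gene, fell from 1.41 ± 0.679 to 0.311 ± 0.107 CPM (adjusted p = 0.00083). Also higher were Ccn2, Thbs1, Tead4 and Nes, with log2 fold changes of 0.69, 0.41, 0.35 and 0.21. All 8 calls held when control 2 was left out, and 7 held in each of the other 3 fits that leave out a library. Loxl2 was lost without control 1 (adjusted p = 0.0712) and Nes without EM-plasma 1 (0.184) or EM-plasma 2 (0.303). The most abundant member, the surface receptor gene Cd44, was at 565 ± 11.6 and 521 ± 1.61 CPM (adjusted p = 0.092). Axl and Ngfr, receptor genes often used to mark that state, showed no call. Axl was at 7.62 ± 1.17 CPM in controls and 9.21 ± 0.354 in treated cells (log2 fold change 0.27, adjusted p = 0.196). Ngfr had 1 to 8 reads per library and was not tested.

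**Figure D5:**
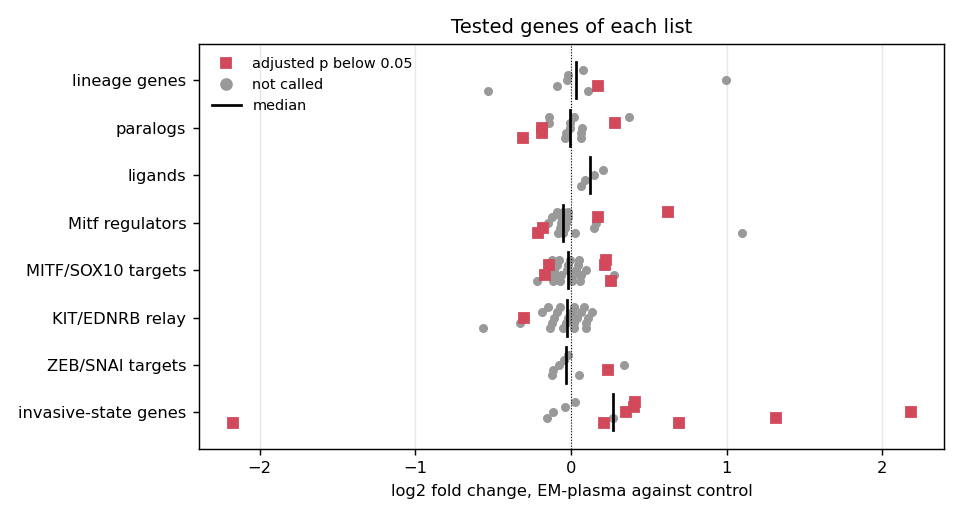
Log2 fold change of EM-plasma against control for each tested gene of the lineage set and of 7 lists around it, with red squares for called genes, grey points for the rest and a black bar at each list's median. The medians lie between -0.048 and 0.031 except for the 4 ligand genes, at 0.12, and the invasive-state genes, at 0.27.

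Other marker lists held 2 called genes, set beside the background of 6.21%. They were 1 of 5 tested glia markers and the 1 tested endothelial marker. Among tested markers of the other lists, 1 platelet, 2 leukocyte and 3 fibroblast genes, 0 were called. The glia markers summed to 1309 to 1344 CPM in controls and 1107 to 1125 CPM in treated cells, with 0 of the 5 tested above 0 in log2 fold change. Mbp, a myelin gene of glia, fell from 1063 ± 14.9 to 867 ± 4.63 CPM (adjusted p = 7.08e-06) and was called in all 4 fits without a library. Vwf, a vessel gene, rose from 3.80 ± 0.25 to 5.52 ± 0.158 CPM (adjusted p = 0.0281), a call that ended in each of those fits (adjusted p from 0.062 to 0.202) and in DESeq2 (0.121). The most abundant tested leukocyte marker, Cd68, was at 1.13 ± 0.379 and 1.62 ± 0.169 CPM. The other tested one, Lyz2, went the other way, from 0.311 ± 0.0376 to 0.129 ± 0.0609 CPM (adjusted p = 0.266). The platelet marker Itga2b was at 0.417 ± 0.216 and 0.526 ± 0.137 CPM. Of the fibroblast markers, Col1a2 was at 23.0 to 25.0 and 23.8 to 24.3 CPM. Col1a1 was at 2.59 ± 0.0399 and 3.83 ± 0.618 CPM (adjusted p = 0.0641), and Pdgfra at 1.83 ± 0.181 and 1.92 ± 0.26 CPM (adjusted p = 0.918).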

How the data were processed

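Poly(A) RNA of 4 libraries was measured, 2 control and 2 EM-plasma, grouped by sample title. Per the submitters' processing notes reads were handled with edgeR, HTSeq, TopHat2 2.1.1 and CASAVA on GRCm38, with no roles given. The deposited count table gives raw reads for each Ensembl gene as whole numbers. The scaled signal tables deposited by the authors equal each count times 1 constant per library and were used only to check the columns. Symbols were found for 53360 of 53465 rows. Exon lengths came from GENCODE M21 and promoter windows from RefSeq (GRCm38.p6).

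Genes were filtered with filterByExpr, scaled by TMM and tested with edgeR 4.0.16 (R 4.3.3), quasi-likelihood F test on group alone, two-sided, Benjamini-Hochberg adjustment over all 13664 genes. Standard errors were recovered from F and the fold change. The variance behind each test was shared over genes: 25.5 of its 27.5 degrees of freedom came from all tested genes together. Intervals and p-values therefore do not measure a gene's own spread alone. The fit was also run on simulated counts with the same variation set for every gene and no library effect. That run does not bear on the calls made here. Alternatives were RLE or no scaling, no low-count filter, DESeq2 1.42.0, limma 3.58.1 voom, a newer dispersion, a replicate block and leaving out each library. Members and lists were chosen with earlier results of these data known. Named by rule were all members, up to 3 called genes per direction and the most abundant gene of each list (for marker lists the most abundant only), and the 3 nearest genes to the member with the smallest adjusted p. Other genes were named after their values were seen. A gene that the rule would name is not reported here. One listed gene, Asip, matched no symbol. Intervals carry no error beyond these 4 libraries.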

Additional observations from a re-analysis of the deposited data

How the results depend on the processing

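In all 11 alternatives Mitf, Sox10, Tfap2a, Snai2 and Kit kept their direction. Without a library, log2 fold changes ran from -0.11 to -0.068 for Mitf, 0.028 to 0.14 for Sox10, -0.032 to 0.0011 for Pax3, 0.16 to 0.19 for Tfap2a, -0.97 to 0.082 for Zeb1, -0.060 to 0.017 for Zeb2, 0.0088 to 0.21 for Snai2 and 0.60 to 1.52 for Kit. Among genes around them the same fits gave -0.0039 to 0.044 for Ptpn11, -0.053 to 0.065 for Col1a2 and -0.11 to 0.99 for Itga2b. The sign turned without control 2 (Pax3, Zeb1, Zeb2, Ptpn11, Col1a2), without EM-plasma 1 (Col1a2, -0.012) and without control 1 (Itga2b). In these fits the lone library of a group is assumed to vary like the other group. The estimated biological coefficient of variation was 2.46% without control 1, 2.43% without control 2 and 5.01% without either EM-plasma library. Calls kept or lost there rest on that estimate as well as on the fold change. The 30 named genes of the lists include genes that had no call in the reported fit. Of the 30, 19 lost a call in at least 1 alternative, and 1, Cd44, gained one. Only Ccn1 and Sparc were called in the reported fit and in all 11 alternatives.

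Genes called numbered 849 (456 higher, 393 lower), 543 with DESeq2 (274 higher), 1683 with the replicate block (832 higher, 851 lower), 14 without the low-count filter (13 higher, 1 lower), and 252 to 1118 without a library (163 to 525 higher, 88 to 593 lower). Without the filter Tfap2a had a log2 fold change of 0.17 (adjusted p = 0.228), 0 lineage genes were called, and 0 paralogs, Mitf regulators, MITF and SOX10 targets, relay genes and ZEB targets and 2 invasive-state genes. The cause was not tested. DESeq2 called 2 paralogs. Without a library the called genes were 0 to 2 lineage genes, 0 to 3 paralogs, 0 to 4 Mitf regulators, 0 to 6 MITF and SOX10 targets, 0 to 2 relay genes, 0 to 1 ZEB and SNAI targets and 7 to 8 invasive-state genes.

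Deviations of the same-numbered libraries from their group means correlated at 0.21 over 10017 genes, and with 2 pairs this does not show that the numbers pair the samples. With the replicate block Tfap2a had a log2 fold change of 0.17 (adjusted p = 0.00169), and 1 lineage gene was called. The block called 8 of 27 tested MITF and SOX10 targets, 4 of 24 relay genes and 2 of 8 ZEB and SNAI targets. It also called 6 of 21 Mitf regulators, 9 of 13 invasive-state genes, 4 of 15 paralogs and 0 of 4 ligand genes. Over all 13664 tested genes the block called 1683, against 849 in the reported fit, so it made more calls in general.

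With the longest transcript as length, control levels in CPM per kb were 190 for Sox10, 90.6 for Mitf, 61.0 for Pax3, 39.5 for Tfap2a, 31.3 for Zeb2, 0.0539 for Zeb1 and 0.0338 for Kit, with Snai2, Lef1 and Ednrb as before. Few reads limit what can be said of Kit and Zeb1.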
